A study of Mus musculus with 12 samples.

Results

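The translation initiation and elongation factors of the mouse melanoma line B16 were followed through total RNA and ribosome-protected fragments after depletion of Elp3. The members were the genes of the deposited count table whose symbols begin with Eif1 to Eif6, Eef1 or Eef2. Symbols beginning with Eif2ak, Eif4ebp or Eef2k (kinases, binding proteins and Eef2kmt) were left out, which gave 55 of 24421 genes. The cells carried a lentivirus with an shRNA of no relevant target (shControl) or with an shRNA specific for Elp3, a single hairpin named sh309 in the labels (shElp3), and no group without virus was used here. Elp3 is the catalytic subunit of Elongator, which starts the modification of the wobble uridine of a set of tRNAs. Each shRNA had 3 cultures lettered A, B and C, and each culture gave a total RNA library and a library of ribosome-protected fragments (RPF, called footprints here), which makes 4 groups of 3 libraries. Nothing in the labels says that the cultures were separate transductions, so every p-value speaks of the spread among these cultures, which may be technical.

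Initiation begins when eIF2 delivers the initiator tRNA to the small ribosomal subunit, with eIF1, eIF1A and the large scaffold eIF3 bound beside it. The eIF4 factors find the mRNA cap (eIF4E), unwind the leader (eIF4A with eIF4B or eIF4H) and bridge to eIF3 (eIF4G). After start codon recognition eIF5 triggers hydrolysis on eIF2, eIF5B joins the large subunit, and eIF2B recharges eIF2 with GTP. During elongation eEF1A brings aminoacyl-tRNAs, its exchange factors eEF1B recycle it, eEF2 moves the ribosome along and eIF5A relieves stalls. Many elongation factor mRNAs belong to the TOP class, whose leader starts with a run of pyrimidines through which mTOR signalling controls their entry into polysomes, and in melanoma eIF4F, the complex of eIF4E, eIF4A and eIF4G, is known as a point where growth signals meet translation.

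Total counts ran from 7619269 to 16527864 per library. Elp3 itself was 78.7 ± 13.3 CPM (read counts scaled to library size and TMM factors; mean ± SD, n = 3) in shControl RNA and 37.3 ± 3.42 in shElp3 RNA, called lower with the letter as a block (edgeR adjusted p = 0.00098) and not without it (0.083). Melanocyte markers were present, with 7 of 7 at a mean of 1 CPM or more in RNA, and their summed level was 8821 to 11767 CPM in shControl and 5865 to 7399 CPM in shElp3. Of the defining markers of other cells, Ptprc, Dcn, Epcam, Krt5 and Krt14 were at 0 in all 6 RNA libraries, and no epithelial marker reached a mean of 1 CPM. Of the leukocyte markers 2 of 5 did (Cd68 and Lyz2), with a summed level of 7.61 to 22.3 CPM in shControl and 6.0 to 11.7 CPM in shElp3. Of the fibroblast markers 2 of 5 did (Pdgfra and Col1a1), with 12.9 to 23.9 CPM in shControl and 21.5 to 43.1 CPM in shElp3. The part of these marker levels in the results was not tested, and in bulk samples fewer cells of a state and less RNA per cell cannot be told apart. Letter A stood apart. In shControl RNA the members of library A lay a median of 0.81 log2 units above the mean of B and C, against 0.00 for all genes, which the scaling sets near 0. In absolute size the gap had a median of 0.92 for the members and 0.69 for all genes, and 20 of 50 members (40%) and 32.4% of all genes differed by more than 1 unit. The members' median gap was 0.36 in shElp3 RNA, 0.09 in shControl footprints and 0.11 in shElp3 footprints. In the RNA of library shControl A, Eif3e lay 1.66 and Eif4a2 1.69 log2 units above B and C, while Eif4g3 lay 2.13 units below.

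All 55 members were matched in RefSeq by symbol, and 50 passed the count filter in every comparison. By role these were 12 of 14 eIF3 genes, 12 of 13 eIF4 genes, 5 of 6 genes of eIF2 and of alternative tRNA delivery, 5 of 5 eIF2B genes, 5 of 6 eEF1 genes, 4 of 4 genes of start codon selection, 3 of 3 of subunit joining, 2 of 2 eIF5A genes, Eef2 and Eif1ad. The 5 under the filter were Eef1a2, Eif2s3y, Eif3j1, Eif3j2 and Eif4e1b. Eef1a2, the eEF1A of muscle and neurons, had counts of 2, 1 and 0 in shControl RNA, 7, 5 and 1 in shElp3 RNA, 1, 3 and 1 in shControl footprints and 5 in each shElp3 footprint library. Eif4e1b, an eIF4E of oocytes, had 2, 1 and 8 in shControl RNA and 4, 5 and 5 in shElp3 RNA, with 0 to 3 in footprints. Eif2s3y, the Y-linked copy of an eIF2 subunit, had 1 read in the 12 libraries together. Eif3j1 and Eif3j2 are near-identical copies, and 1 read was listed for the first and 0 for the second. How reads that fit more than 1 copy were counted is not given in the sources used here, so the levels of eIF3J, of Eif4a1 and Eif4a2 and of Eef1a1, which has many processed copies, are uncertain to that extent.

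Together the members took 4.69, 3.11 and 2.99% of the RNA counts in shControl A, B and C and 3.38, 2.87 and 2.58% in shElp3. The groups overlapped, and the difference did not pass an exact two-sided permutation test (p = 0.4, with 0.1 the smallest p that 3 against 3 libraries allow). In footprints the members took 1.75, 2.15 and 2.16% in shControl and 1.93, 1.75 and 1.80% in shElp3, again with overlap (exact permutation p = 0.3). Eef1a1 and Eef2 alone held 2.98, 1.73 and 1.63% of shControl RNA counts and 0.51, 0.72 and 0.70% of shControl footprints. Without them the members' share was 1.35 to 1.71% of RNA and 1.25 to 1.46% of footprints in shControl. These shares count reads and are not corrected for the length of the mRNAs.

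The first comparison asked which factor mRNAs differ in abundance on Elp3 depletion. In total RNA 43 of 50 members had a log2 fold change (shElp3 over shControl) below 0, where 6375 of all 12274 genes tested had. The median was -0.32 for the members and -0.02 over all genes. Without library shControl A the members' count was 30 of 50 and their median -0.08. No member passed edgeR's quasi-likelihood test over the 6 libraries at an adjusted p of 0.05 (0 of 50, where 1.14% of all genes passed). At an unadjusted p under 0.05 there were 5 members, Eif3h, Eif3e, Eif3b, Eif3c and Eif2s2, all lower, a count not set against all genes here. DESeq2 called 0 members, where it called 5.31% of all genes. The groups did not overlap for 7 members, all lower (Eif2s2, Eif2s3x, Eif3a, Eif3b, Eif3c, Eif3h and Eif4e3), where 9.56% of all genes were lower without overlap. No member was higher without overlap, where 10.2% of all genes were.

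**Figure D1:**
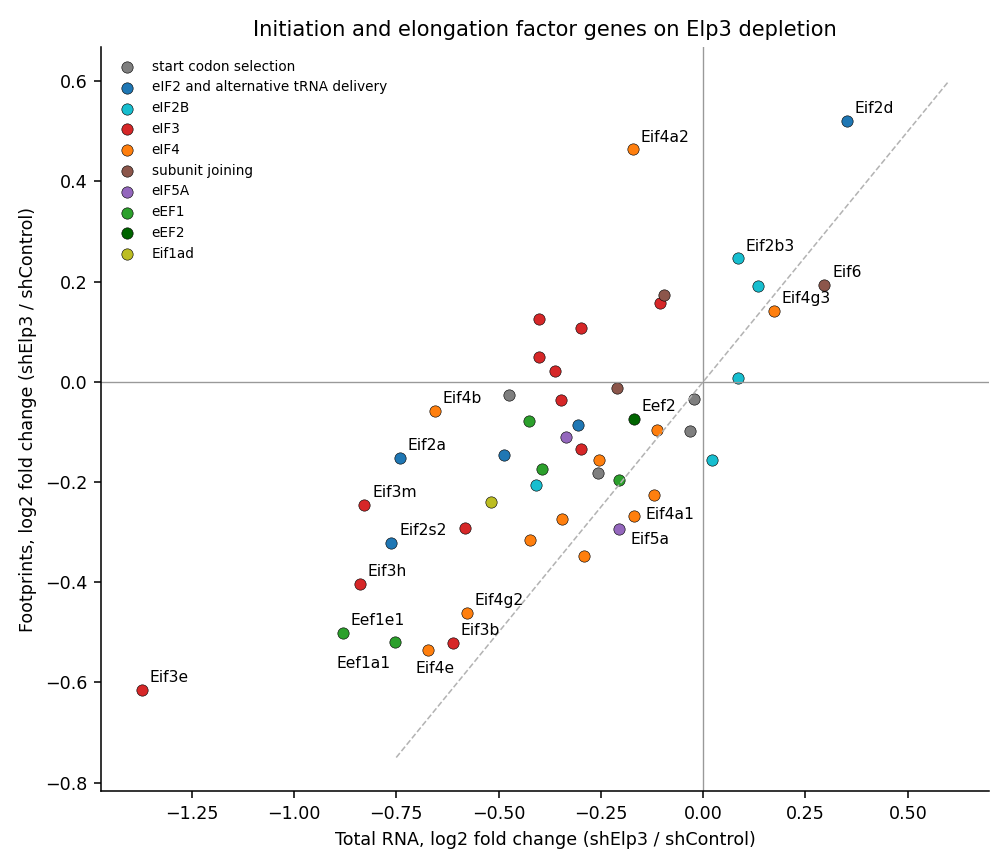
Log2 fold change (shElp3 over shControl, edgeR) of 50 initiation and elongation factor genes in total RNA (x axis) and footprints (y axis), coloured by role; the dashed line marks equal change. 43 points lie left of 0 and 37 below 0, with Eif3e at -1.37 and -0.62, and Eif2d highest on both axes.

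The letters were taken to pair the RNA libraries of the 2 shRNAs, since same-letter libraries deviated together. This choice was made from these same data, and B and C deviated together across letters as well (r = 0.731 and 0.606). These values set A apart but do not show which of B and C belong together. With the letter as a block 6 members fell, where 6.75% of all genes were called lower and 12.2% in either direction. These were Eif3e (-1.18, SE 0.22, adjusted p = 0.0031 in edgeR with the replicate block), Eif3h, Eif3m, Eif3b, Eif2s2 and Eef1e1. With letters B and C only, 6 members were called lower, where 10.5% of all genes were (19.4% in either direction). Eif3e, Eif3h, Eif3b and Eif2s2 were among them again, beside Eif3c and Eif4g2.

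The eIF3 complex held 4 of the 6 in either fit. All 12 tested eIF3 genes were below 0 in RNA, from -1.37 (Eif3e) to -0.10 (Eif3g), with a median of -0.40, and this held under each other scaling (DESeq2 size factors, upper quartile). In the libraries lettered B and C alone, 11 of 12 were below 0, with a median of -0.25, and without shControl A alone 8 of 12, with a median of -0.19. Within letters, their median change was -0.65 in A, -0.20 in B and -0.36 in C.

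Eif3e, a subunit of eIF3, had 859.9, 301 and 239 CPM in shControl A, B and C and 248, 149 and 143 CPM in shElp3. Library shControl A was far above all the others, and shElp3 A lay between shControl B and C, so the groups overlapped although shElp3 was lower within each letter. The log2 fold change was -1.37 (SE 0.52, adjusted p = 0.33 in edgeR without a block). In letters B and C alone it was -0.88 (SE 0.15, adjusted p = 0.00052 in edgeR). Of all genes, 23.4% were lower in shElp3 RNA within each letter and 26.1% were higher, so either pattern was common.

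Eif3h, another subunit, had 409, 249 and 223 CPM in shControl RNA and 178, 173 and 141 CPM in shElp3 RNA. Every shElp3 library lay below every shControl library. Its log2 fold change was -0.84 (SE 0.29, adjusted p = 0.28 in edgeR without a block) and -0.79 with the block (SE 0.19, adjusted p = 0.016).

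Eif3b, a further subunit, had 317, 329 and 347 CPM in shControl RNA, where A did not stand apart, and 173, 270.2 and 207 CPM in shElp3 RNA. The groups did not overlap, and the log2 fold change was -0.61 (SE 0.24, adjusted p = 0.36 in edgeR without a block) and -0.63 with it (adjusted p = 0.045). Eif3m had 638, 227 and 200.3 CPM in shControl and 279, 175 and 147 CPM in shElp3. It overlapped between the groups and was lower within each letter, as 23.4% of all genes were. Its log2 fold change was -0.83 (SE 0.50) and -0.41 in letters B and C alone (SE 0.15, adjusted p = 0.063 in edgeR).

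Among the eIF2 genes Eif2s2, the beta subunit, had 846, 461 and 452 CPM in shControl RNA and 395, 355 and 287 CPM in shElp3 RNA, without overlap. Its log2 fold change was -0.76 (SE 0.32, adjusted p = 0.40 in edgeR) and -0.71 with the block (adjusted p = 0.041), or -0.51 in letters B and C alone (SE 0.15, adjusted p = 0.024). Eif2s1, the alpha subunit whose phosphorylation slows initiation under stress, had 297, 142 and 128 CPM in shControl and 224, 119 and 115 CPM in shElp3, and these overlapped (log2 fold change -0.31, SE 0.42, and -0.20, SE 0.14, in letters B and C alone). Eif2d, which delivers tRNA independently of GTP, went the other way, with 58.8, 43.8 and 46.9 CPM in shControl and 72.4, 63.9 and 54.4 CPM in shElp3. It was higher within each letter, as 26.1% of all genes were. Its groups overlapped, and the log2 fold change was 0.35 (SE 0.23, adjusted p = 0.63 in edgeR). The eIF2B genes, the exchange factor of eIF2, had 4 of 5 values above 0 in RNA and none called, with a range of -0.41 to 0.13.

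Of the 12 tested eIF4 genes 11 were below 0 in RNA, and 0 were called with or without the block. Eif4e RNA was 248, 131 and 109 CPM in shControl and 119.8, 103 and 82.9 CPM in shElp3, with overlap and lower values within each letter (log2 fold change -0.67, SE 0.35, and -0.37, SE 0.16, in letters B and C alone). Eif4g1, the scaffold, had 431, 691 and 625 CPM in shControl and 482, 544 and 589.9 CPM in shElp3, a log2 fold change of -0.11 (SE 0.27), or -0.22 (SE 0.15) in letters B and C alone. Eif4g3, a second scaffold, was lowest in both A libraries, at 30.6 and 58.9 CPM, against 124 to 144 CPM in the 4 others. Its log2 fold change of 0.17 turned to -0.26 without shControl A and to -0.07 without shElp3 B, none of them called. Eif6, which keeps the large subunit free of the small one, had 157, 97.7 and 109 CPM in shControl and 192, 138 and 116 CPM in shElp3, higher within each letter with overlapping groups (0.30, SE 0.29).

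The elongation factors varied most in letter A. Eef1e1, a scaffold protein of the aminoacyl-tRNA synthetase complex, had 57.1, 21.3 and 15.5 CPM in shControl RNA and 23.8, 16.6 and 10.6 CPM in shElp3 RNA, overlapping between groups and lower within each letter (log2 fold change -0.88, SE 0.53, and -0.45, SE 0.23, in letters B and C alone). Eef1a1, which encodes eEF1A, had 23616, 10282 and 8996 CPM in shControl and 11375, 7245 and 6822 CPM in shElp3, a log2 fold change of -0.75 (SE 0.51, adjusted p = 0.65 in edgeR) that was -0.46 in letters B and C alone (SE 0.17, adjusted p = 0.069). Eef2 had 13113, 6721 and 6439 CPM in shControl and 8707, 7785 and 6869 CPM in shElp3. It was lower in shElp3 in letter A and higher in B and C, the groups overlapped, and the log2 fold change was -0.17 (SE 0.41) in all libraries and 0.15 (SE 0.17) in letters B and C alone. For the 5 tested eEF1 genes the median change within letters was -0.81 in A, -0.01 in B and -0.21 in C.

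**Figure D2:**
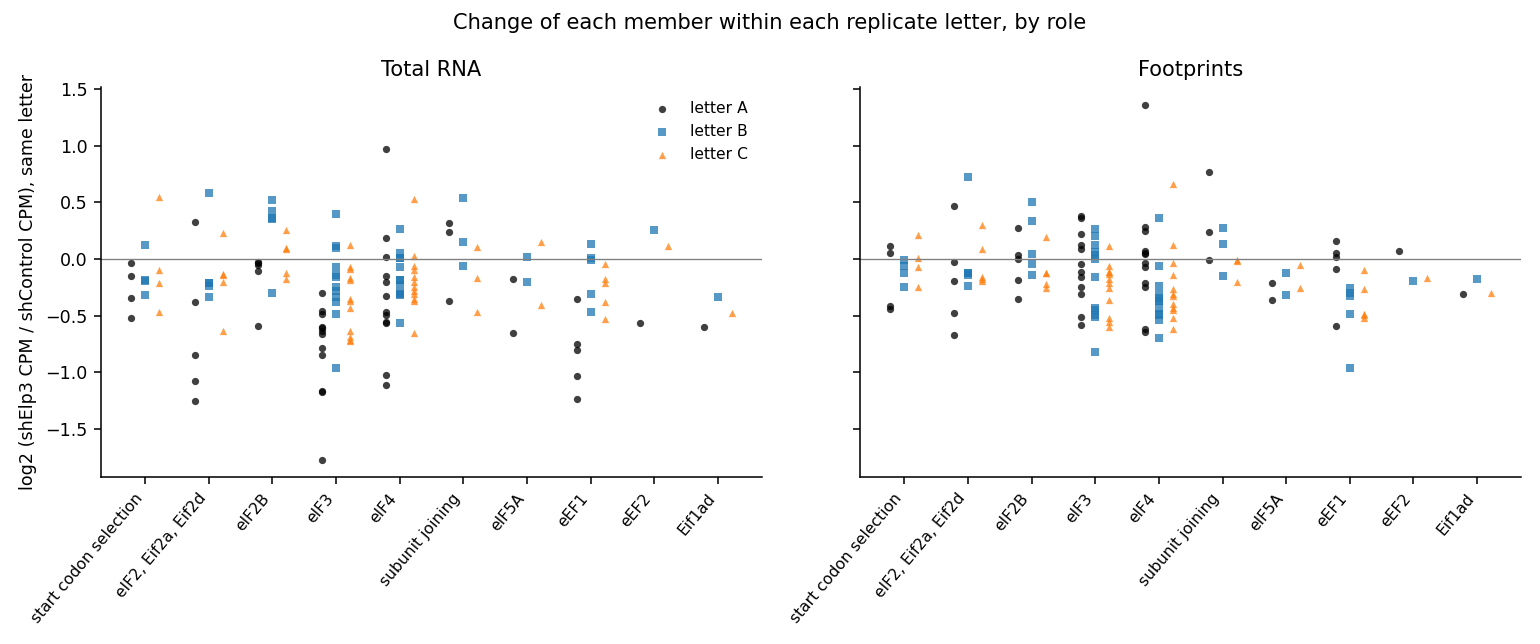
Log2 ratio of shElp3 to shControl CPM within each replicate letter for 50 factor genes, by role, in total RNA (left) and footprints (right); each point is a gene in a letter. In RNA the members' median is -0.51 in A, -0.17 in B and -0.18 in C, and in footprints -0.03, -0.17 and -0.19. The letters did not pair the footprint libraries.

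The second comparison asked which factor mRNAs carried fewer or more footprints in shElp3 cells. In footprints 37 of 50 members were below 0, with a median log2 fold change of -0.14 against -0.01 over all 11343 genes, and the count was 31 of 50 with upper quartile scaling. Eif4e alone was called (1 of 50, where 4.83% of all genes passed and 3.06% were lower). At an unadjusted p under 0.05 there were 10 members, a count not set against all genes here. The groups did not overlap for 15 members that were lower, where 15.3% of all genes were, and for 2 that were higher (Eif2d and Eif4a2), where 15.4% of all genes were. The members of library A lay closer to B and C here than in RNA. The letters did not pair the footprint libraries, and with them as a block 0 members were called, where 5.87% of all genes were.

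Eif4e encodes the cap-binding protein, and it is shown with its promoter because it was the member called. It had 204, 184 and 192 CPM in shControl footprints and 137, 139 and 125 CPM in shElp3 footprints. All 3 shElp3 libraries lay below all 3 shControl libraries, and within each group the libraries were close, at 193 ± 10.1 and 133 ± 7.67 (mean ± SD, n = 3). The log2 fold change was -0.53 (SE 0.12, adjusted p = 0.049 in edgeR). It was between -0.57 and -0.46 under every alternative run, and the call was kept with DESeq2 (adjusted p = 0.0014), with DESeq2 size factors, with a stricter count filter, in letters B and C alone and when shControl A was left out. It was lost with upper quartile scaling (0.075), without a count filter (0.060), with the letter as a replicate block (0.078) and when any library other than shControl A was left out (adjusted p from 0.13 to 0.20). The gene lies at chr3:138526191-138559696 on GRCm38.p6. RefSeq's promoter table gives 2 starts for it, both on the plus strand. The 250 bases before and 30 bases after the second, in whose window both matches of the motif lay (chr3:138527018-138527297) follow, with the CACGTG E-box, a motif that MYC and MITF family proteins can bind, in capitals.
Eif4e promoter: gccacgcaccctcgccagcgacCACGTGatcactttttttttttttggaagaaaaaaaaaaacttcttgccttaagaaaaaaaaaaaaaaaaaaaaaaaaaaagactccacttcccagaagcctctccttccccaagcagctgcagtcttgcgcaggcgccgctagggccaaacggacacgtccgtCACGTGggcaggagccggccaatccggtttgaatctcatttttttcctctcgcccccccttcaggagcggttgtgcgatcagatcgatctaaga
The motif stood at 228 and 64 bases before the start. CACGTG, which reads the same on both strands, was in the windows of 11 of 43 members with a promoter in the table (Eef2, Eif1b, Eif3a, Eif3f, Eif3k, Eif4a1, Eif4e, Eif4g1, Eif4h, Eif5a and Eif5a2) and of 8.09% of all 27025 genes. Members with and without it had median log2 fold changes of -0.25 (11 genes) and -0.39 (29 genes) in RNA and of -0.11 and -0.15 in footprints. A match describes these letters in this window and is no measurement of binding. Each window searched held 250 bases before and 50 after a start, and a gene counted if any of its windows matched. The 27025 genes are all those of the promoter table, whether tested here or not.

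Eif4a1 and Eif4a2 encode the paired helicases of eIF4F, and their footprints went opposite ways outside letter A. Eif4a1 had 828, 1352 and 1331 CPM in shControl footprints and 1013, 977 and 928 CPM in shElp3. Library shControl A lay below all 3 shElp3 libraries and shControl B and C above them, so the groups overlapped and the log2 fold change was -0.27 (SE 0.20, adjusted p = 0.46 in edgeR). In letters B and C alone it was called lower (-0.49, SE 0.12, adjusted p = 0.012 in edgeR). Eif4a2 had 311, 263 and 278 CPM in shControl footprints and 390.5, 345 and 440.2 CPM in shElp3, with every shElp3 library above every shControl library. Its log2 fold change was 0.46 (SE 0.14, adjusted p = 0.10 in edgeR, and 0.046 in DESeq2) and 0.54 in letters B and C alone (adjusted p = 0.016). Of the footprints of the pair, Eif4a2 held 27.3, 16.3 and 17.3% in shControl A, B and C and 27.8, 26.1 and 32.2% in shElp3. The share was higher within each letter, though the letters did not pair the footprint libraries. The groups overlapped, and the exact two-sided permutation p was 0.2 (the smallest possible is 0.1). In RNA the share was 53.7, 34.3 and 30.7% in shControl and 45.4, 38.1 and 43.7% in shElp3, lower in letter A and higher in B and C. These shares compare libraries and not the levels of the genes, since they are not corrected for length.

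Of the 12 tested eIF3 genes, 7 were below 0 in footprints (6 with upper quartile scaling) and 5 had groups that did not overlap, all lower (Eif3b, Eif3c, Eif3e, Eif3h and Eif3m). Eif3b had 499, 469 and 463 CPM in shControl footprints and 342, 349 and 306 CPM in shElp3. The groups were well apart, and the log2 fold change of -0.52 (SE 0.12) had an adjusted p of 0.0501 in edgeR, just above the threshold. It passed in DESeq2 (adjusted p = 0.0013) and in letters B and C alone (-0.51, adjusted p = 0.011 in edgeR). Eif3e footprints were 274, 378 and 365 CPM in shControl and 197, 218 and 249 CPM in shElp3, a log2 fold change of -0.62 (SE 0.17, adjusted p = 0.078 in edgeR). Here shControl A was the lowest of its group, where in RNA it was the highest. Eif3h footprints were 221, 246 and 271 CPM in shControl and 192, 178 and 189 CPM in shElp3, without overlap (log2 fold change -0.40, SE 0.13, adjusted p = 0.11 in edgeR). The others lay near 0, from -0.13 (Eif3f) to 0.16 (Eif3g) without Eif3c and Eif3m.

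**Figure D3:**
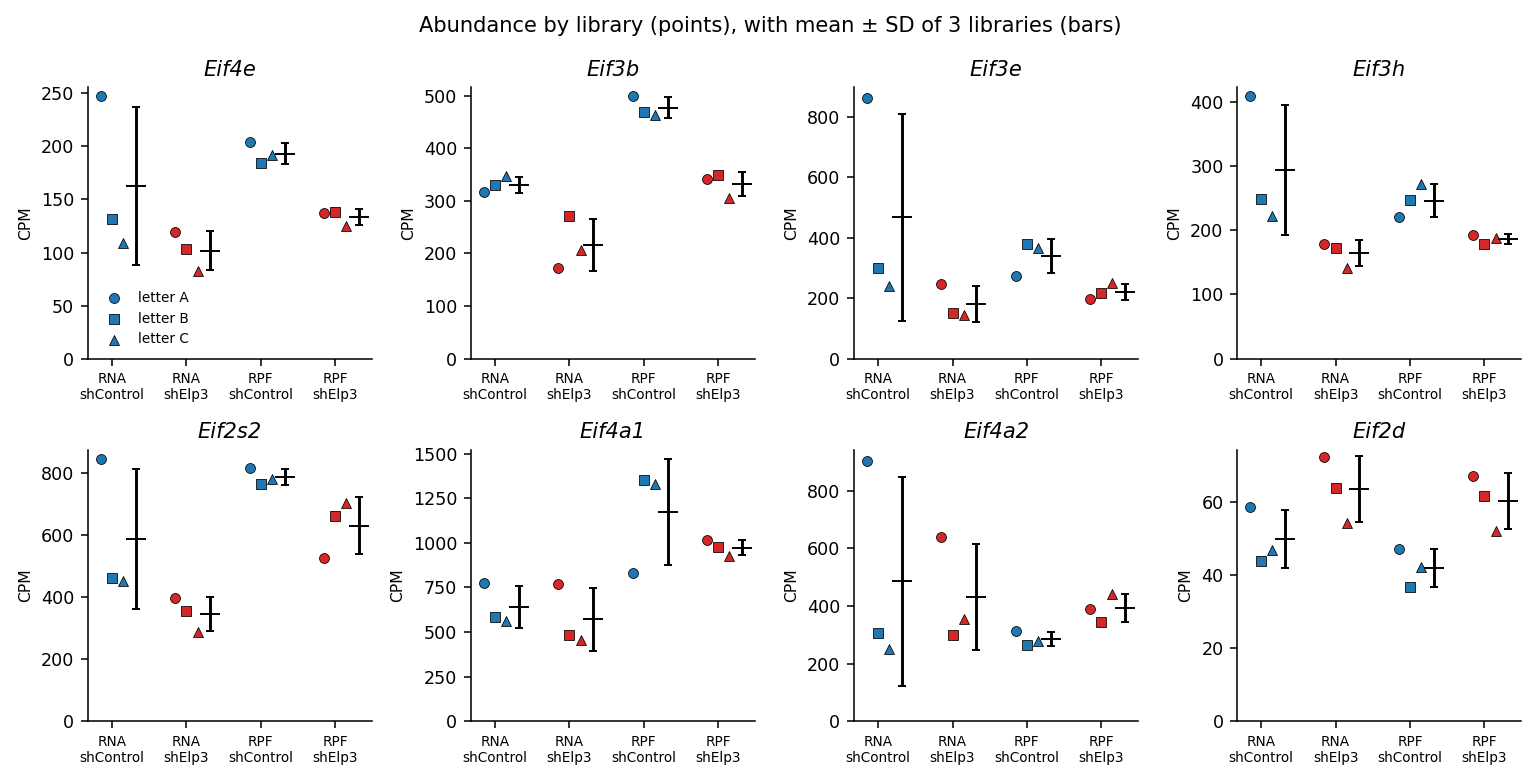
CPM (y axis, from 0) of 8 factor genes in each library of total RNA and footprints (RPF); points are libraries, marked by letter, and bars give the mean ± SD of 3 libraries. Eif4e, Eif3b, Eif3h and Eif2s2 footprints are lower in every shElp3 library, Eif4a2 and Eif2d footprints higher, and shControl RNA A stands above the others for Eif3e and Eif4a2.

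Other members without overlap in footprints were Eif2s2, with 815, 763 and 782 CPM in shControl and 526, 660.4 and 702 CPM in shElp3, and Eef1e1, with 36.6, 33.8 and 33.5 CPM in shControl and 25.0, 24.5 and 23.8 CPM in shElp3. Eif4g2, a scaffold that does not bind eIF4E, had 478, 458 and 408 CPM in shControl and 314, 360.1 and 302 CPM in shElp3 (log2 fold change -0.46, SE 0.13, adjusted p = 0.090 in edgeR). Each of these was lower in every shElp3 library and missed the threshold in edgeR's fit of all 6 libraries, while DESeq2 called Eef1e1 and Eif4g2 (adjusted p = 0.025 for each). Eif2d was higher in every shElp3 library, with 47.2, 36.8 and 42.3 CPM in shControl and 67.3, 61.7 and 52.1 CPM in shElp3 (log2 fold change 0.52, SE 0.16, adjusted p = 0.11 in edgeR). Eef1a1 footprints were 3284, 5006 and 4607 CPM in shControl and 3175, 2608 and 3209 CPM in shElp3. They did not overlap, with shControl A close to the shElp3 libraries, and the log2 fold change of -0.52 (SE 0.19, adjusted p = 0.16 in edgeR) became -0.73 in letters B and C alone (SE 0.15, adjusted p = 0.0053).

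Several other factors had overlapping footprint groups. Eef2 had 2118, 2258 and 2364 CPM in shControl and 2284, 2007 and 2109.5 CPM in shElp3, a log2 fold change of -0.07 (SE 0.13). Eif2s1 had 289, 308 and 280.2 CPM in shControl and 291, 288 and 247 CPM in shElp3 (-0.09, SE 0.12). Eif4g1 had 441, 588 and 599.8 CPM in shControl and 476, 463 and 585 CPM in shElp3 (-0.10, SE 0.17). Eif5a, which carries the hypusine residue, had 1024, 881 and 773 CPM in shControl and 818, 719 and 648 CPM in shElp3. It was lower within each letter, as 25.0% of all genes were, though the letters did not pair these libraries. Its groups overlapped (-0.29, SE 0.16, adjusted p = 0.30 in edgeR). Eif2b3, the gamma subunit of eIF2B, had 57.7, 48.2 and 59.6 CPM in shControl and 71.9, 69.5 and 54.8 CPM in shElp3 (0.25, SE 0.16).

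The number of members called in footprints varied with the tool and with the libraries kept. DESeq2 called 7 (Eif4e, Eif3b, Eif3e, Eif3h, Eif4g2 and Eef1e1 lower, Eif4a2 higher), where 11.5% of all genes passed, 6.88% lower and 4.65% higher. In letters B and C alone there were 13 (11 lower, 2 higher), where 21.7% of all genes passed, 12.2% lower and 9.41% higher. Without shControl A alone there were 12 (24.8% of all genes passed there, about the members' share), and with any other library left out 0.

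The third comparison asked whether footprints changed more or less than the mRNA, as the interaction of fraction and shRNA over all 12 libraries. No member was called (0 of 50), nor was any of the 11238 genes tested in edgeR (0% of all genes) or DESeq2, and at an unadjusted p under 0.05 there were 62 genes and 0 members. Of the 50 members 38 were above 0, with a median of 0.15 against -0.03 over all genes. In letters B and C alone 27 were above 0 and the median was 0.03 (0 members called, where 0.0177% of all genes were), and without culture shControl A 18 were above 0 and the median was -0.08. All 12 eIF3 genes were above 0 (median 0.34), 11 of 12 in letters B and C alone (median 0.08), and 6 of 12 without shControl A. Their change within letters was a median of 0.73 in A, -0.01 in B and 0.12 in C. The groups' ratios did not overlap for 1 member, Eif2d, where 2.28% of all genes were higher without overlap, and for 0 on the lower side, where 4.84% were. Its log2 ratio of footprint to RNA CPM was -0.14, -0.11 and -0.04 in shControl A, B and C and 0.01, 0.02 and 0.04 in shElp3, a difference of 0.12 (SE 0.27).

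The widest differences in the ratio were not called. Eif3e had log2 ratios of -1.48, 0.47 and 0.73 in shControl and -0.22, 0.62 and 0.89 in shElp3, where both A cultures were lowest, and its interaction of 0.71 (SE 0.57) turned to -0.20 without shControl A. Eif4a2 had -1.36, -0.08 and 0.28 in shControl and -0.60, 0.28 and 0.41 in shElp3, an interaction of 0.58 (SE 0.60) that turned to -0.13 without shControl A. For Eif4e the ratios were -0.10, 0.62 and 0.93 in shControl and 0.31, 0.50 and 0.68 in shElp3, an interaction of 0.09 (SE 0.38). The groups overlapped for all 3 of these genes. Eif2b4, the delta subunit of eIF2B, had the lowest interaction, -0.23 (SE 0.28), from ratios of 0.41, 0.84 and 0.64 in shControl and 0.26, 0.35 and 0.60 in shElp3. Eif4a3, a helicase of the exon junction complex, had -0.10, 0.43 and 0.33 in shControl and -0.16, 0.14 and 0.18 in shElp3 (-0.16, SE 0.33). Eif6 had 0.01, 0.37 and 0.36 in shControl and -0.06, 0.10 and 0.23 in shElp3 (-0.15, SE 0.33). Both values turned above 0 without shElp3 A.

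The fourth comparison set footprints against total RNA within shControl, and so placed the factor mRNAs by footprints per mRNA relative to other genes. It shares the shControl libraries with the comparisons above. In shControl 9 of 50 members were called, where 23.1% of all genes were, 8.35% higher and 14.7% lower. Higher were Eif2b3 and Eif5a. Lower were Eif4b, Eef2, Eef1a1, Eif5a2, Eef1b2, Eef1g and Eif4e3. The labels tie both fractions to a culture, and with the culture as a replicate block 13 were called, where 35.3% of all genes were. Eef1a1 and Eef1b2 then missed the threshold, and Eif2b1, Eif3b and Eif5b (higher) and Eif1a, Eif3f and Eif4enif1 (lower) passed. DESeq2 called 16, where it called 32% of all genes.

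Eif4b, the cofactor of the eIF4A helicase, had the lowest ratio, with log2 footprint to RNA ratios of -2.84, -1.78 and -1.47 in shControl A, B and C and -1.77, -1.65 and -1.41 in shElp3. All 6 cultures were far below 0, and the fitted log2 difference in shControl was -2.20 (SE 0.41, adjusted p = 0.011 in edgeR). Eef2 had -2.45, -1.44 and -1.33 in shControl and -1.82, -1.88 and -1.61 in shElp3, a fitted difference of -1.85 (SE 0.39, adjusted p = 0.016 in edgeR). Eef1a1 had -2.67, -0.90 and -0.85 in shControl and -1.73, -1.40 and -0.99 in shElp3, with shControl A lowest (-1.62, SE 0.48, adjusted p = 0.046 in edgeR). The 2 eIF5A genes stood at opposite ends. Eif5a had ratios of 1.23, 1.12 and 0.94 in shControl and 1.05, 0.78 and 1.08 in shElp3, and Eif5a2, its close relative, -1.96, -1.42 and -1.07 in shControl and -1.52, -1.34 and -1.28 in shElp3. Eif5a was above 0 and Eif5a2 below it in all 6 cultures. Eif2b3 had 0.92, 1.28 and 1.57 in shControl and 1.31, 1.36 and 1.35 in shElp3, the highest mean of the members in shControl. Eif5b, with 1.40, 1.23 and 1.11 in shControl and 1.92, 0.93 and 1.57 in shElp3, and Eif4a1, with 0.27, 1.34 and 1.36 in shControl and 0.51, 1.08 and 1.12 in shElp3, were above 0 in all 6 cultures.

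A list of members known as TOP mRNAs (Eef1a1, Eef1b2, Eef1d, Eef1g, Eef2, Eif3e, Eif3f and Eif3h among those tested) had 8 of 8 values below 0 in shControl. Without a block 4 were called lower (Eef1a1, Eef1b2, Eef1g and Eef2) and with the culture as a block 3 (Eef1g, Eef2 and Eif3f). The median was -0.95 (-0.92 with the block), against 0.17 for the 42 other members and -0.05 for all genes. In letters B and C alone 5 of 8 were below 0, with a median of -0.69. In the shElp3 fit given below, Eif3e (0.38, SE 0.23) and Eif3h (0.27, SE 0.16) stood above 0 and the rest of the list below it. The list was chosen with earlier results of these data known and is not independent evidence of its direction. Outside the list Eif4b (-2.20), Eif5a2 (-1.60), Eif4e3 (-1.12) and Eif1a (-1.12) lay below its median. Published TOP lists differ, and some also hold Eif4b and Eif3a, of which Eif3a stood above 0 at 0.53 (SE 0.27). The first 30 bases from the annotated start are shown for members with 1 start in RefSeq's promoter table (GRCm38.p6), to set low members beside Eif2s3x, which was near 0 and has a pyrimidine start, and 2 high ones (Eif5b and Eif2b1), with the longest run of pyrimidines in capitals.
Eif4b: cgccgcgccaCCCCCTCgcgctgctttacg
Eef2: gttgacgtcagcggTCTCTTCCgccgcagc
Eef1a1: TTCCCgagggtgggggagaacggtatataa
Eef1b2: gccggaagtagccgaggCCTTgcgtccgag
Eif5a2: ggcgggCCggggcggggagccgggtgtggg
Eif3f: CTCTCTTTCTCggcaagatggcttctccgg
Eif2s3x: CTTTTCTCTCCgagcaagatggctgggggt
Eif5b: acctggccggcggCTCTactggagacgctc
Eif2b1: gcgCCgacgagtgacgccacgcacgccgga
They lie at chr15:102073773-102073802, plus strand (Eif4b), chr10:81176631-81176660, plus strand (Eef2), chr9:78481695-78481724, minus strand (Eef1a1), chr1:63176831-63176860, plus strand (Eef1b2), chr3:28781277-28781306, plus strand (Eif5a2), chr7:108934415-108934444, plus strand (Eif3f), chrX:94212622-94212651, minus strand (Eif2s3x), chr1:37998010-37998039, plus strand (Eif5b) and chr5:124579102-124579131, minus strand (Eif2b1). A start with C followed by 4 or more of C or T, searched on the gene's strand, was found in 2 of the 43 members with a window, Eif3f and Eif2s3x, and in 3.01% of all 27025 genes. Eif3f was low in shControl (-0.75, SE 0.23, adjusted p = 0.052 in edgeR, called with the block) and Eif2s3x was near 0 (-0.18, SE 0.28). A run of 7 or more pyrimidines anywhere in the first 30 bases was in 12 of 43 members and in 18.6% of all genes. The 10 tested members with such a run had a median of -0.38 and the 30 others of 0.26. In Eef2 the run stood at bases 15 to 22 counted from the annotated start, and in Eif4b at bases 11 to 17. Annotated starts need not be those used in B16 cells, and no start sites were measured here.

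**Figure D4:**
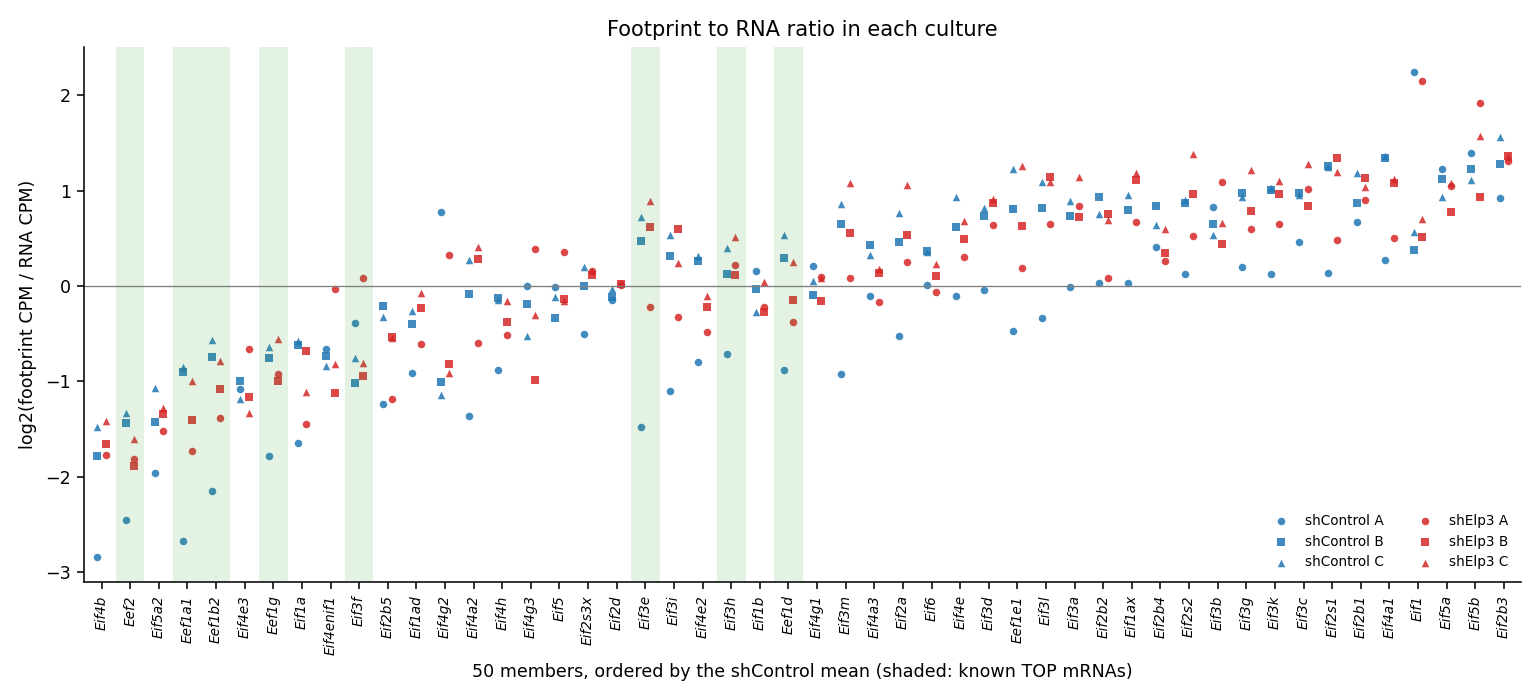
Log2 ratio of footprint CPM to RNA CPM (y axis) for 50 factor genes in each of 6 cultures, ordered by the shControl mean; shading marks the TOP list. Eif4b, Eef2, Eif5a2, Eef1a1 and Eef1b2 lie at the low end in both shRNA groups, and shControl A (blue circles) is the lowest culture for many members.

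By complex, the 12 eIF3 genes had a median log2 difference of 0.42 in shControl, with 7 above 0, and 11 above 0 in letters B and C alone. The 5 eIF2B genes had 4 above 0 (Eif2b3 1.20, Eif2b1 0.83, Eif2b4 0.58 and Eif2b2 0.42), while Eif2b5, its catalytic subunit, had -0.69 (SE 0.30). The eIF4 genes ranged from -2.20 (Eif4b) to 0.98 (Eif4a1), with 4 of 12 above 0. Of the 5 tested eEF1 genes 4 were below 0, and Eef1e1, which is no exchange factor, was above it at 0.26.

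The shElp3 libraries, not used in that fit, placed the same members near the ends, in a fit added after the shControl values were seen. There 27 of 50 members were called, 17 higher and 10 lower, where 50% of all genes were called, 22.2% higher and 27.8% lower (27 with the culture as a block, where 53.4% were). Eef2 had -1.78 (SE 0.21), Eif4b -1.63 (SE 0.19), Eef1a1 -1.41 (SE 0.26) and Eif5a2 -1.40 (SE 0.20) in footprints over RNA, and Eif5b 1.43 (SE 0.22) and Eif2b3 1.33 (SE 0.20), each with an adjusted p of 0.0019 or less in edgeR. Of the eIF3 genes 11 of 12 were above 0 and 7 were called higher. In shControl the number of calls rested on single cultures: it was 41 when culture A was left out, where 69.2% of all genes were called, and 0 when B or C was. The part of each mRNA over which footprints were counted is not given in the sources used here, and lengths of untranslated regions were not used.

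Genes that work beside the factors were taken from other lists. Of 8 termination and recycling genes 7 were below 0 in footprints and 1 was called lower, where 4.83% of all genes were called and 3.06% were lower. It was Abce1, the ATPase that splits ribosomes after termination (-0.54, SE 0.12, adjusted p = 0.042 in edgeR, 0.073 with the replicate block). In RNA none of the 8 was called without the block. With it, where 6.75% of all genes were called lower, Etf1, the release factor eRF1 (-0.71, adjusted p = 0.021 in edgeR), and Abce1 (-0.65, adjusted p = 0.036) were called. Among 9 poly(A) and mRNP partners none was called between the shRNAs in either fraction. In shControl, Pabpc1 (-1.96, SE 0.48) and Pabpc4 (-2.35, SE 0.30), the poly(A)-binding proteins, were called lower in footprints against RNA, and Pdcd4, an inhibitor of eIF4A, higher (1.12, SE 0.23). Gspt2, the release factor eRF3b, was called higher there too (1.23, SE 0.28). The 9 regulators that the symbol rule leaves out (kinases, binding proteins and Eef2kmt) had 0 called between the shRNAs in RNA and in footprints. The same held for the 9 enzymes that make hypusine on eIF5A and diphthamide on eEF2, and for the 9 mitochondrial translation factors. In shControl footprints against RNA, where 23.1% of all genes were called, Eif4ebp2, a repressor of eIF4E, was the 1 regulator called of 8 tested (-2.13, SE 0.60), and 5 of 9 hypusine and diphthamide enzymes (Dph6 and Dnajc24 higher, Dohh, Dph3 and Dph7 lower) and 1 of 9 mitochondrial factors (Gfm1, higher) were called. With the culture as a block, where 35.3% of all genes were called, 3 termination genes were called higher and 1 lower, and 2 regulators lower. The calls of the other lists with this block are not given here. In footprints 7 of 9 of the hypusine and diphthamide enzymes (median 0.23) and 7 of 9 mitochondrial factors (median 0.31) were above 0, on the other side of 0 from most cytosolic factors, with no test of that difference.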

How the data were processed

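The deposited values are raw counts, whole numbers for each gene and each of 12 libraries. The tools named per the submitters' processing notes are TopHat2 2.1.1, Bowtie, HTSeq and bcl2fastq, with mm10 as genome build. Annotation, strandedness and the counted feature: not given in the sources used here, so overlapping, antisense or near-identical genes may be mixed. Groups and letters came from the labels.

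Genes were kept with filterByExpr (minimum count 10, for comparisons across fractions in both), libraries scaled by TMM, and each comparison fitted over all genes by the quasi-likelihood functions of edgeR 4.0.16 in R 4.3.3. P-values were adjusted by Benjamini-Hochberg and called under 0.05. The SE is the log2 fold change over the root of F. Log2 ratios used CPM with a prior count of 0.5. Alternatives were DESeq2 1.42.0, other size factors and count filters, letters B and C only, replicate blocks, leaving out each library or culture, and limma 3.58.1 voom with quality weights for the ratio. The functions were tested on simulated counts. Sequences are RefSeq's, on GRCm38.p6, whose coordinates are those of mm10, for 43 of 55 members.

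Members, lists and tests were chosen with earlier results of these data known. Any member could be named. Those called (in RNA and the ratio also with the block), those with the 3 highest and 3 lowest changes per comparison at a mean log2 CPM of 3 or more, and a fixed set (Eif4e, Eif4a1, Eif4a2, Eif4g1, Eif5a, Eif5a2, Eef1a1, Eef1a2, Eef2, Eif2s1) were given by library, and Eif4g2, Eif5b and the genes shown by sequence were added after their values were seen. From other lists up to 2 called genes were named, beside Elp3, and those named in shControl footprints against RNA beyond that were added after their values were seen. In RNA, deviations from the group means correlated between same-letter libraries of the 2 shRNAs (r = 0.820, 0.471 and 0.630 for A, B and C), and in the ratio too (0.730, 0.432 and 0.463), so the letters were taken to pair them, although B and C correlated across letters as much (0.731 and 0.606 in RNA). In footprints r was 0.325, -0.095 and 0.239. RNA and footprint libraries with the same shRNA and letter were read as 1 culture (shControl r = 0.461, 0.478 and 0.386). No 2 libraries of a group agreed within sampling noise (chi-square per degree of freedom 8.25 or more).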

Additional observations from a re-analysis of the deposited data

How the results depend on the processing

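The number of members called moved with the setting. In total RNA it was 0, and 6 with letters B and C only and 6 with the replicate block. In footprints it was 1, and 2 with DESeq2 size factors in edgeR, 0 with upper quartile factors, 7 with DESeq2, 0 without a count filter, 2 with a stricter filter (count 50), 13 with letters B and C only and 0 with the replicate block, and it ran from 0 to 12 when 1 library was left out. In the footprint to RNA ratio it was 0 under every setting run, with the replicate block and the block by culture included. In footprints against total RNA in shControl it was 9, and 16 with DESeq2, 41 with letters B and C only, 13 with the replicate block, and 0 to 41 when a culture was left out. In shElp3, a fit added after the data were seen, it was 27, 27 with the replicate block, and 15 to 37 when a culture was left out. The share of all genes called moved with the setting too. In footprints it was 4.83% with every library kept and 24.8% once shControl A was dropped. In footprints against total RNA in shControl it was 23.1% with every culture kept and 69.2% once culture A was dropped. For several settings the share of all genes is not given here. Whether the members' counts moved more than those of all genes was not tested. Outcomes were also counted for chosen values of single members, which were not all values of all members. Of these outcomes, 313 kept direction and side of the threshold, 33 lost the call, 23 gained one and 6 changed direction. Those were Eif4g3 in RNA (-0.26 without shControl A and -0.07 without shElp3 B, up to 0.53), Eif4a3 (-0.355 to 0.0419) and Eif6 (-0.2949 to 0.0081) in the ratio, above 0 without shElp3 A, and Eif3e (-0.20 to 1.14) and Eif4a2 (-0.13 to 1.05) in the ratio, below 0 without shControl A. Values outside that count changed direction too with letters B and C only. Among them were Eef2 (-0.17 to 0.15) and Eif4a2 (-0.17 to 0.23) in RNA and Eef1a1 (0.18 to -0.29) in the ratio. The causes were not tested. With 3 libraries per group, and letter A apart in shControl RNA, the SE of a member's RNA change was up to 0.58, so changes under about 1 log2 unit were often not detectable.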
